A study of Mus musculus with 19 samples.

Results

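Astrocytes of the cerebral cortex clear potassium and water from around active neurons, and 9 genes that carry out this work were followed across the estrous cycle and in males. The genes were Gja1, Gjb6 and Gjb2 (gap junction connexins), Kcnj10 and Kcnj16 (inward rectifier potassium channels), Aqp4 (the water channel), Mlc1 and Hepacam (membrane proteins of astrocyte junctions and endfeet) and Atp1b2 (a subunit of the sodium-potassium pump). They were picked out by symbol from a set that was drawn up with earlier results of these data known, and all 9 of 9 were found among the 21749 genes of the deposited table. All 9 passed the filter on low values, as did 20644 genes (94.9%) in all.

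The RNA was polyadenylated RNA bound to tagged ribosomes (translating ribosome affinity purification). Every mouse, males and females alike, carried the transgene Tg(Aldh1l1-EGFP/Rpl10a)JD130Htz on a mixed background named B6;FVB. In these mice the regulatory sequence of Aldh1l1, an astrocyte gene, drives a fusion of EGFP with the ribosomal protein Rpl10a, and RNA on the tagged ribosomes is pulled down with magnetic beads. Females were collected in the morning in metestrus (8 libraries), proestrus (3, labelled Pro-Day) or estrus (4). The other group was males (4 libraries). No other treatment is named, and the sources used here give neither ages nor the hour at which males were collected. Separate animals are not named in the labels either. P-values thus measure only how far libraries spread, which may be technical. The labels give 3 batches, numbered 2, 3 and 4. In batch 2 there were 3 estrus libraries with 2 of proestrus and 2 of metestrus, in batch 3 there was 1 library of each stage, and in batch 4 the 4 male libraries were run beside 5 of metestrus. Replicate numbers are names in the order of deposit.

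Astrocytes are joined into a network by gap junctions made chiefly of connexins Cx43 and Cx30, through which potassium taken up at active synapses can spread to neighbouring cells. The Kir4.1 potassium channel takes up potassium and holds the resting membrane near the potassium equilibrium, and together with the aquaporin-4 water channel it is gathered in the endfeet that wrap blood vessels. The Mlc1 and Hepacam proteins act together in volume regulation, and loss of either protein in people causes a leukodystrophy with swollen white matter.

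The sequences upstream of the transcription start are shown for the 4 genes in which a short motif of a steroid receptor was found, because the comparison is one of hormonal stages. RefSeq's promoter windows for the build GRCm38.p6 held 7 of the 9 genes, in 10 windows, since Kcnj16 has several starts. Aqp4 and Atp1b2 are named only. The 250 bases before each start were searched on both strands for the estrogen receptor palindrome GGTCANNNTGACC, its half-site AGGTCA, and the half-site TGTTCT bound by glucocorticoid and progesterone receptors. The half-site overlaps the palindrome by the letters GGTCA. Each sequence runs 5′ to 3′ on the strand of its gene and ends with the last base before the start, and capitals mark a match, with TGACCT and AGAACA being the half-sites on the other strand.
Gjb2: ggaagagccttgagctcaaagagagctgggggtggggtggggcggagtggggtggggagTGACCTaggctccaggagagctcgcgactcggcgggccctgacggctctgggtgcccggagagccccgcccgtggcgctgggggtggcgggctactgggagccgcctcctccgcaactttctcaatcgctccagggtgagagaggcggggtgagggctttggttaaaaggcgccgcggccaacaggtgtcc
Kcnj16: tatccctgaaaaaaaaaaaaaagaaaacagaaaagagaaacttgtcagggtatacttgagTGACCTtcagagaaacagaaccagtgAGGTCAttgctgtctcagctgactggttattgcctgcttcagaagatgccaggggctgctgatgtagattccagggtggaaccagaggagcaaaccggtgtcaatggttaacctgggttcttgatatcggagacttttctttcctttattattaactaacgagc
Kcnj10: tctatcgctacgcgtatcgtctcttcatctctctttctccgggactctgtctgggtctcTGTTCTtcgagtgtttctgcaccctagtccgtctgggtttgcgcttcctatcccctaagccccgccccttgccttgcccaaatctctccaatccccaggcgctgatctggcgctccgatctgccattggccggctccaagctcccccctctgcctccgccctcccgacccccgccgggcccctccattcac
Hepacam: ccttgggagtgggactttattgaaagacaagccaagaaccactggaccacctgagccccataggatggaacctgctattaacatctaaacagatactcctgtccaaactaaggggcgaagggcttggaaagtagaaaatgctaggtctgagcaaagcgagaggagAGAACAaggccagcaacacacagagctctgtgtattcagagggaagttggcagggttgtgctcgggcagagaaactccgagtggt
The windows lie at chr14:57104703-57104952 (minus strand) for Gjb2, chr11:110967783-110968032 (plus) for the first start of Kcnj16, chr1:172340960-172341209 (plus) for Kcnj10 and chr9:37367356-37367605 (plus) for Hepacam.

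The palindrome was in 0 of the 7 genes and in 0.0639% of the 32851 windows of the table. The half-site AGGTCA was present in 14.0% of all windows. Gjb2 held 1 match, at bases -191 to -186 from the start. The first window of Kcnj16 held 2 matches, 1 on each strand, at -190 to -185 and -164 to -159. TGTTCT was present in 16.1% of all windows, and in Kcnj10 at -191 to -186 and Hepacam at -85 to -80. No match to the letters searched lay in the windows of Gja1, Gjb6 and Mlc1. A match describes letters only, and binding was not measured.

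Values are log2 values as deposited, whose scaling per length is not stated, so that levels are compared between groups for the same gene and not between genes. Sequencing depth is unknown. Fold changes were fitted with limma across all tested genes with group and batch in the model, and are log2 values of the first group over the second with their standard error (SE). Adjusted p-values follow Benjamini and Hochberg over the 20644 genes, at a threshold of 0.05. Stage comparisons in this model rest on batches 2 and 3, and males against metestrus on batch 4. No batch holds males together with proestrus or estrus, so those 2 comparisons are linked through metestrus. The deposited values lack 4 directions of variation between libraries, all of them within groups, where 11 of 15 dimensions remain. The labels name the matrix with the letters SVA and do not say what was removed or whether differences between groups were kept. Standard deviations, standard errors and p-values therefore describe the spread that was left, and the model's p-values are somewhat too small.

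All 15 astrocyte markers tested were above the filter on low values, and so were markers of other cell types. Averaged over the 15 astrocyte markers, males had a log2 value of 14.11 ± 0.12 (SD, n = 4), metestrus 13.89 ± 0.18 (SD, n = 8), proestrus 13.80 ± 0.03 (SD, n = 3) and estrus 13.77 ± 0.21 (SD, n = 4). All 12 neuron and 12 oligodendrocyte markers were also above the filter, with group means of 12.34 to 12.42 and 10.11 to 10.43. The 10 microglial markers averaged 7.59 to 7.87 over the groups and the 12 choroid plexus and ependymal markers 5.16 to 5.79. No unpurified tissue was among the samples, so enrichment was not measured, and in bulk libraries fewer cells of a type and less RNA per cell cannot be told apart. Estrus libraries stood apart in both directions for the genes described here. Estrus replicate 1 was above its group mean in 9 of 9 genes and highest of its group in 8. Estrus replicate 4, the only estrus library of batch 3, was below its group mean in 9 of 9 genes and lowest of its group in 7, and its astrocyte marker mean of 13.49 was the lowest of all 19 libraries. Metestrus replicate 3 is likewise the only metestrus library of batch 3, and with batch in the model it weighs on every stage comparison with metestrus. Some fold changes of single genes printed below move by over 1.5 times or turn direction without Estrus replicate 4 or Metestrus replicate 3. These are given with that value, unless they are close to 0. Without Estrus replicate 1, values are given for Kcnj16 and for the 9 genes as a list. For the other genes, the lowest value of estrus over metestrus with single libraries left out is given.

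None of the 9 genes passed the threshold in any of the 6 comparisons. In proestrus against metestrus limma called 0 of 9, and 0.988% of all tested genes. In estrus against proestrus it called 0 of 9 (all genes 0.94%), and in estrus against metestrus 0 of 9 (all genes 0.0872%). Males against metestrus gave 0 of 9 (all genes 0.0242%), males against proestrus 0 of 9 (all genes 0.174%) and males against estrus 0 of 9 (all genes 0%). Before adjustment, a limma p under 0.05 was found for 0 of 9 in each of the 3 stage comparisons. Of the 20644 tested genes, 2707, 2985 and 2337 had such a p there, in the order above. These counts depended on single libraries. In batch 2 alone such a p was found for 4 of 9 in estrus against proestrus (all genes 2953). It was likewise found there for 4 of 9 in estrus against metestrus (all genes 2250). Without Estrus replicate 4 the count was 3 of 9 in each of these 2 comparisons (all genes 3822 and 2976). Without Estrus replicate 1 it was 1 and 2 of 9 (all genes 3165 and 2813). With all 19 libraries, an unadjusted p under 0.05 was found for 2 of 9 in males against metestrus (Aqp4 and Hepacam, all genes 1100 of 20644). In males against proestrus it was found for 1 (Aqp4, all genes 2291), and in males against estrus for 2 (Aqp4 and Kcnj16, all genes 2138). Intervals of the fold changes, below, show how large a difference these libraries leave possible.

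**Figure D1:**
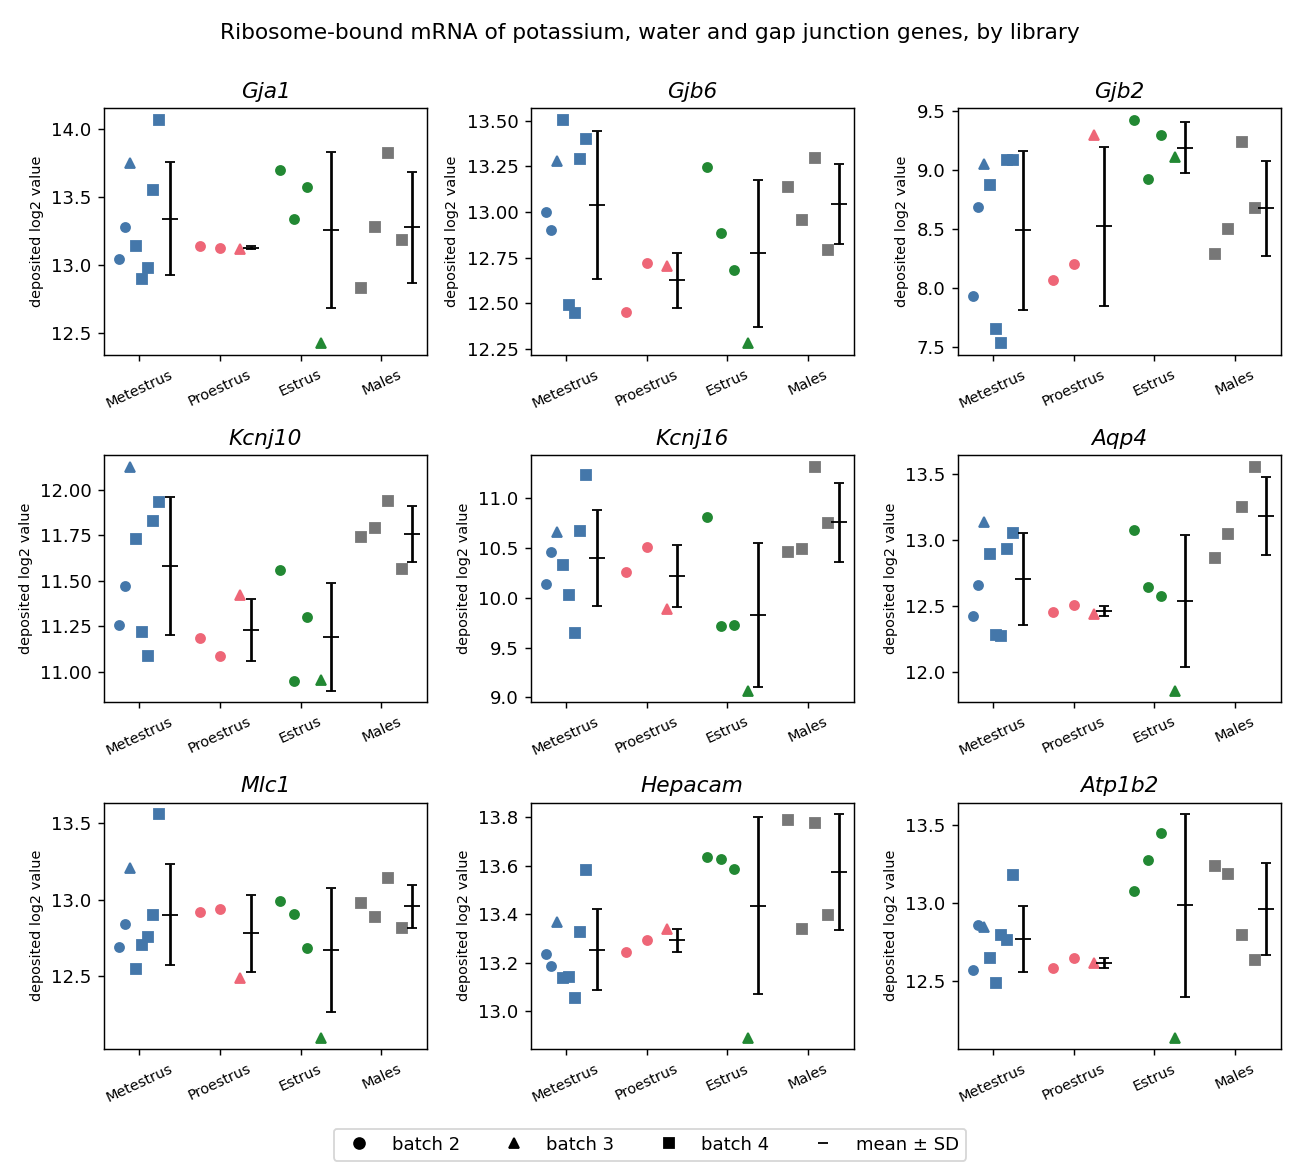
Deposited log2 values (y axis, a scale of its own for each gene) of the 9 genes in 19 libraries by group, with symbols for the batch and bars for the mean ± SD. The 3 proestrus libraries of Gja1 lie between 13.12 and 13.14, while the estrus libraries of the same gene run from 12.43 to 13.70.

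Gja1 (ENSMUSG00000050953.11) encodes Cx43, the main connexin of astrocytes. In metestrus its log2 value ran from 12.90 to 14.07 with a median of 13.21. The proestrus libraries had 13.14, 13.13 and 13.12, and the estrus libraries 13.70, 13.34, 13.58 and 12.43. Males had 12.83, 13.28, 13.82 and 13.18. Every pair of groups overlapped, and the highest and lowest group means were 0.211 apart. Against metestrus the fold change was -0.23 ± 0.31 in proestrus (SE, limma adjusted p = 0.808), -0.12 ± 0.29 in estrus (adjusted p = 0.910) and -0.05 ± 0.25 in males (adjusted p = 0.999). The 95% interval of the estrus difference ran from -0.72 to 0.48. Its direction turned to 0.27 ± 0.28 without Estrus replicate 4 (SE, adjusted p = 0.700), 0.25 without Metestrus replicate 3 (adjusted p = 0.794) and 0.37 ± 0.15 in batch 2 alone (SE, adjusted p = 0.412). The Gja1 difference of proestrus also turned, to 0.17, without Metestrus replicate 3 (adjusted p = 0.892). With single libraries left out, estrus over metestrus also went as low as -0.34.

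Gjb6 (ENSMUSG00000040055.10) encodes Cx30, which shares the astrocyte junctions with Cx43. Metestrus ran from 12.45 to 13.51 with a median of 13.14. Proestrus libraries had 12.45, 12.72 and 12.71, estrus libraries 13.25, 12.89, 12.68 and 12.28, and males 13.14, 12.95, 13.30 and 12.79. All 4 male libraries were above all 3 proestrus ones, and the other groups overlapped. The fold change of proestrus over metestrus was -0.44 ± 0.26 (SE, interval -0.98 to 0.11, limma adjusted p = 0.516), and that of males over proestrus 0.46 ± 0.34 (adjusted p = 0.639). Estrus stood at -0.30 ± 0.25 from metestrus (SE, adjusted p = 0.686), but at -0.05 without Estrus replicate 4 (adjusted p = 0.960), -0.11 without Metestrus replicate 3 (adjusted p = 0.921) and -0.01 in batch 2 alone (adjusted p = 0.989). Without Metestrus replicate 3 the value for proestrus over metestrus was -0.23 (adjusted p = 0.824) and that for males over proestrus 0.25 (adjusted p = 0.860). With single libraries left out, estrus over metestrus also went as low as -0.445.

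Gjb2 (ENSMUSG00000046352.8) encodes Cx26, a connexin of astrocytes that is also made by cells of the meninges. Its metestrus values ran from 7.53 to 9.09 with a median of 8.78. Proestrus had 8.07, 8.20 and 9.30, and males had 8.29, 8.50, 9.24 and 8.68. The estrus libraries had 9.43, 8.93, 9.30 and 9.11 and included the highest value of all 19 libraries. The estrus mean of 9.19 ± 0.22 (SD, n = 4) was above the means of metestrus (8.49 ± 0.67, SD, n = 8) and proestrus (8.53 ± 0.67, SD, n = 3), while the ranges overlapped. The fold change of estrus was 0.68 ± 0.37 over metestrus (SE, interval -0.09 to 1.45, limma adjusted p = 0.493) and 0.72 ± 0.37 over proestrus (SE, interval -0.05 to 1.48, adjusted p = 0.380).

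The stages of Gjb2 can be set side by side in the 2 batches that hold them, without a test of whether the batches differ. In batch 2 the estrus libraries (8.93 to 9.43) were all above those of metestrus (7.93 and 8.69) and proestrus (8.07 and 8.20). In batch 3 the values were 9.05 in metestrus, 9.30 in proestrus and 9.11 in estrus, with 1 library each. Within batch 2 the fold change was 0.91 ± 0.32 over metestrus (SE, limma adjusted p = 0.368) and 1.08 ± 0.32 over proestrus (adjusted p = 0.199). Without Estrus replicate 4 it was 0.98 (adjusted p = 0.273) and 1.01 (adjusted p = 0.186). It fell to 0.43 over metestrus without Metestrus replicate 1, and to 0.57 over proestrus without Proestrus replicate 1. Of the markers of meningeal fibroblasts, another source of Gjb2, 8 of 14 were positive in estrus against metestrus, with a median of 0.04. The count was 10 of 14 at a median of 0.37 without Estrus replicate 4, 11 of 14 at 0.51 without Metestrus replicate 3 and 10 of 14 at 0.56 in batch 2 alone, beside medians of 0.01, 0.01 and 0.03 over all genes. Their mean was 6.45 to 7.05 in the metestrus libraries and 6.11 to 7.60 in the estrus libraries, and their part in the Gjb2 values was not tested.

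Kcnj10 (ENSMUSG00000044708.6) encodes the Kir4.1 channel. Metestrus values ran from 11.09 to 12.13 with a median of 11.60. Proestrus libraries had 11.19, 11.09 and 11.42, and estrus libraries 11.56, 10.95, 11.30 and 10.96. In the 4 male libraries the values were 11.74, 11.79, 11.94 and 11.57. Each male library was above all proestrus and all estrus libraries, and within the range of metestrus. Fold changes from metestrus were -0.39 ± 0.24 in proestrus (SE, limma adjusted p = 0.514), -0.41 ± 0.22 in estrus (SE, adjusted p = 0.492) and 0.20 ± 0.19 in males (SE, adjusted p = 0.992). Males stood 0.61 ± 0.29 over estrus (SE, adjusted p = 0.483), and 0.37 ± 0.29 without Estrus replicate 4 (SE, adjusted p = 0.641). The estrus difference from metestrus was smaller without Estrus replicate 4, at -0.17 (adjusted p = 0.777), without Metestrus replicate 3, at -0.17 (adjusted p = 0.831), and in batch 2 alone, at -0.09 (adjusted p = 0.902). With other single libraries left out it went as low as -0.57. Without Metestrus replicate 3 Kcnj10 in proestrus stood at -0.13 from metestrus (adjusted p = 0.897), and males at 0.32 over proestrus (adjusted p = 0.760) and 0.36 over estrus (adjusted p = 0.698).

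Kcnj16 (ENSMUSG00000051497.16) encodes Kir5.1, which joins Kir4.1 in mixed channels sensitive to pH. It had the widest range of the 9 genes from lowest to highest library, at 2.25. Its standard deviation over all libraries, 0.562, was below that of Gjb2, 0.582. Metestrus ran from 9.65 to 11.23 with a median of 10.40, and proestrus had 10.26, 10.51 and 9.89. Estrus libraries had 10.81, 9.71, 9.72 and 9.07, so that 3 of 4 were below every proestrus value while Estrus replicate 1 was above all of them. Males had 10.46, 10.49, 11.32 and 10.76. The fold change of estrus over metestrus was -0.63 ± 0.34 (SE, interval -1.33 to 0.07, limma adjusted p = 0.485), and -0.22 ± 0.32 in batch 2 alone (SE, adjusted p = 0.846). The value was -0.36 ± 0.37 without Estrus replicate 4 (SE, adjusted p = 0.702) and -0.28 without Metestrus replicate 3 (adjusted p = 0.809). Leaving out Estrus replicate 1 made it larger, at -0.92 (limma adjusted p = 0.203).

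Males over estrus gave Kcnj16 the highest fold change of the 9 genes in the 6 comparisons. It was 1.01 ± 0.45 (SE, interval 0.08 to 1.94), with an unadjusted p of 0.0349 and a limma adjusted p of 0.446. It was 0.74 ± 0.47 without Estrus replicate 4 (SE, adjusted p = 0.555) and 0.66 ± 0.47 without Metestrus replicate 3 (SE, adjusted p = 0.634). Leaving out Estrus replicate 1 raised it to 1.30 (limma adjusted p = 0.193). The log2 value of Kcnj16 minus that of Kcnj10, its channel partner, averaged -1.19 ± 0.26 for metestrus (SD, n = 8), -1.01 ± 0.49 for proestrus (SD, n = 3), -1.36 ± 0.49 for estrus (SD, n = 4) and -1.0 ± 0.34 for males (SD, n = 4). These differences overlapped between all groups, and only their change between groups can be read, not the ratio itself.

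Aqp4 (ENSMUSG00000024411.12) encodes the water channel of astrocyte endfeet. Metestrus ran from 12.27 to 13.14 with a median of 12.78, and proestrus had 12.45, 12.50 and 12.44. In estrus the values were 13.07, 12.64, 12.58 and 11.86. Males had 12.87, 13.04, 13.25 and 13.56, all above the proestrus libraries and overlapping with metestrus and estrus. Males stood 0.49 ± 0.22 over metestrus (SE, interval 0.04 to 0.95, unadjusted p = 0.0345, limma adjusted p = 0.902). They stood 0.77 ± 0.34 over proestrus (SE, unadjusted p = 0.0359, adjusted p = 0.403) and 0.71 ± 0.33 over estrus (SE, unadjusted p = 0.0442, adjusted p = 0.471). Among the stages the fold changes were -0.28 ± 0.27 for proestrus over metestrus (SE, adjusted p = 0.707), 0.06 ± 0.25 for estrus over proestrus (SE, adjusted p = 0.943) and -0.22 ± 0.25 for estrus over metestrus (SE, adjusted p = 0.786).

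Without Estrus replicate 4 Aqp4 stood at 0.12 ± 0.24 in estrus over metestrus (SE, limma adjusted p = 0.868), at 0.39 ± 0.24 in estrus over proestrus (SE, adjusted p = 0.401) and at 0.38 ± 0.30 in males over estrus (SE, adjusted p = 0.656). In batch 2 alone estrus stood 0.22 over metestrus (adjusted p = 0.693) and 0.29 over proestrus (adjusted p = 0.489). Without Metestrus replicate 3 Aqp4 stood at 0.09 in proestrus and 0.12 in estrus over metestrus (adjusted p = 0.938 and 0.898), and males at 0.41 over proestrus and 0.37 over estrus (adjusted p = 0.717 and 0.713). With single libraries left out, Aqp4 in estrus over metestrus also went as low as -0.42. Astrocyte markers as a list also leaned higher in males, with 14 of 15 positive against metestrus at a median of 0.21. Against proestrus (0.23) and estrus (0.32) 15 of 15 were positive. In these comparisons 0 of 15 passed the threshold (lowest limma adjusted p 0.65, 0.222 and 0.311). Over all tested genes 55.3%, 59.5% and 57.8% were positive, at medians of 0.04, 0.13 and 0.11. The positive astrocyte markers were 9 of 15 against proestrus (0.15) and 10 of 15 against estrus (0.17) without Metestrus replicate 3, and 11 of 15 against estrus (0.12) without Estrus replicate 4. When every library was centred on the mean of its astrocyte markers, a setting chosen after the data were seen, the Aqp4 difference of males over metestrus was 0.27 ± 0.19 (SE, adjusted p = 0.702). The part of the astrocyte markers in the male values was not tested further.

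**Figure D2:**
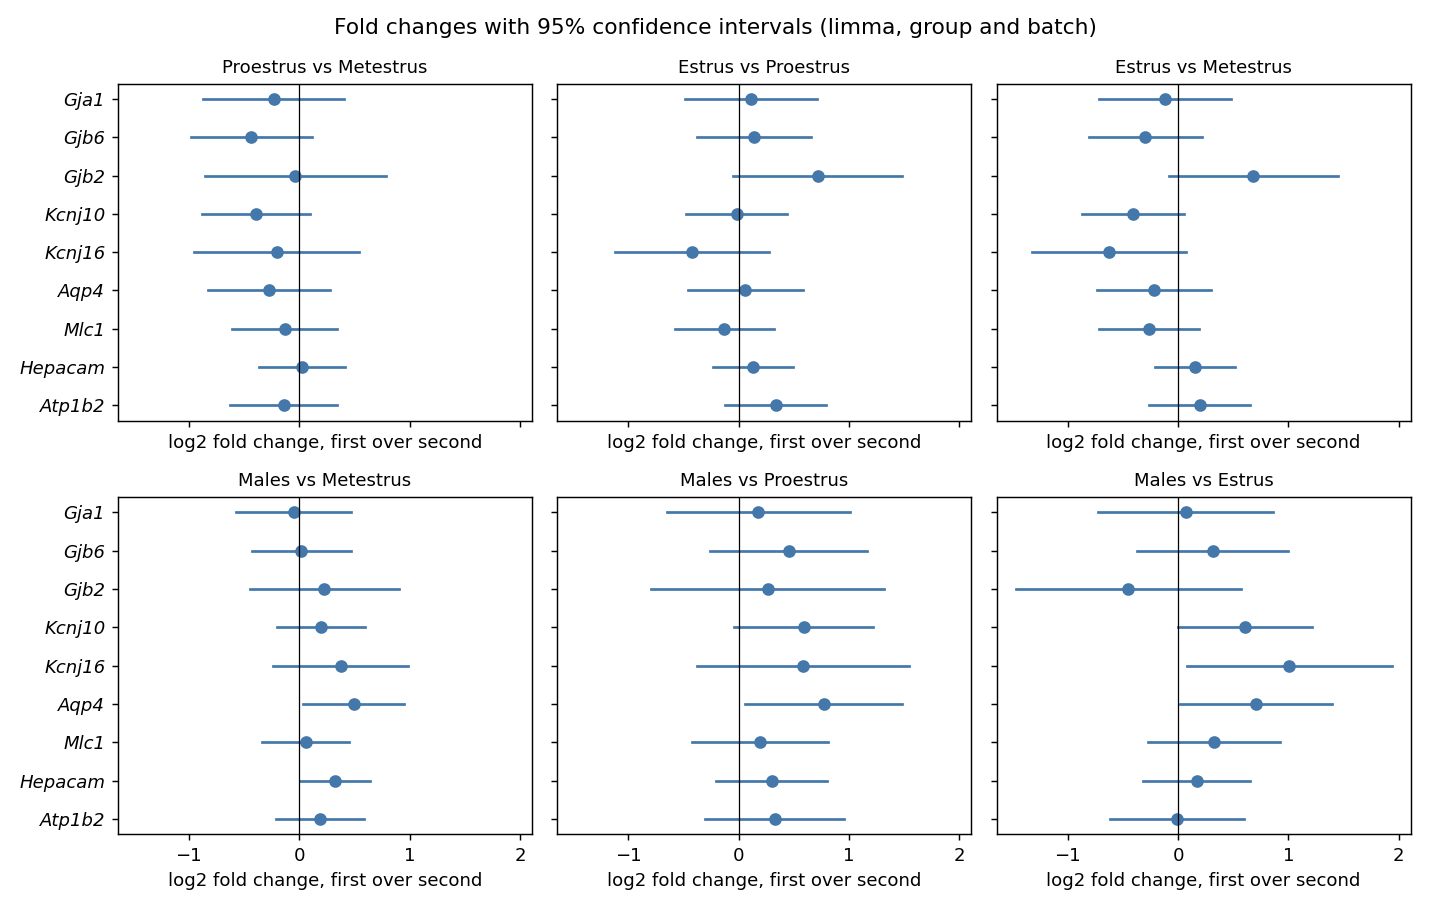
Log2 fold change (x axis, points) with its 95% confidence interval (lines) for the 9 genes (y axis) in the 6 comparisons, first group over second, from the limma model with group and batch. Aqp4 is at 0.49, 0.77 and 0.71 in males over metestrus, proestrus and estrus, and Gjb2 at 0.68 and 0.72 in estrus over metestrus and proestrus, none of them past the adjusted threshold.

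Mlc1 (ENSMUSG00000035805.14) encodes the membrane protein of astrocyte junctions whose loss causes the leukodystrophy named above. Metestrus ran from 12.55 to 13.56 with a median of 12.80. Proestrus had 12.92, 12.94 and 12.49, estrus 12.99, 12.91, 12.69 and 12.10, and males 12.98, 12.89, 13.14 and 12.82. All groups overlapped and the group means lay within 0.284. The fold change of estrus over metestrus was -0.26 ± 0.22 (SE, interval -0.71 to 0.19, limma adjusted p = 0.678), and that of males over metestrus 0.06 ± 0.19 (SE, adjusted p = 0.999). For Mlc1 the estrus value was -0.05 without Estrus replicate 4 (adjusted p = 0.948), 0.06 without Metestrus replicate 3 (adjusted p = 0.948) and 0.10 in batch 2 alone (adjusted p = 0.851). With other single libraries left out it went as low as -0.44.

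Hepacam (ENSMUSG00000046240.9) encodes GlialCAM, the adhesion protein that brings Mlc1 to junctions. It had the smallest range of the 9 genes. Metestrus ran from 13.05 to 13.58 with a median of 13.21, and proestrus had 13.24, 13.29 and 13.34. Estrus had 13.64, 13.63, 13.59 and 12.89, so 3 of 4 libraries were at or above the highest metestrus library and Estrus replicate 4 was below all of them. Males had 13.79, 13.34, 13.78 and 13.40. Males stood 0.33 ± 0.15 over metestrus (SE, interval 0.01 to 0.64, unadjusted p = 0.0456, limma adjusted p = 0.927). Estrus stood 0.16 ± 0.18 over metestrus (SE, adjusted p = 0.778), 0.39 ± 0.16 without Estrus replicate 4 (SE, adjusted p = 0.274) and 0.31 without Metestrus replicate 3 (adjusted p = 0.540). With single libraries left out, this estrus difference ran from 0.08 to 0.39. Centred on the astrocyte markers, the difference of males over metestrus was 0.11 ± 0.12 (SE, adjusted p = 0.821).

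The difference between the 2 genes was also followed by group. The log2 value of Mlc1 minus that of Hepacam ran from -0.59 to -0.02 over the metestrus libraries, -0.85 to -0.33 over proestrus, -0.90 to -0.65 over estrus and -0.81 to -0.45 over males. The estrus values were all below those of metestrus, and the other groups overlapped with metestrus. The difference was looked at after its values were seen and was not tested. How often differences of other gene pairs keep estrus and metestrus apart was not counted. Estrus replicate 4 lay within the estrus range of this difference, although both of its values were the lowest of their group.

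Atp1b2 (ENSMUSG00000041329.14) encodes the beta-2 subunit of the sodium-potassium pump, an adhesion molecule on glia that assists the pump's potassium uptake. Metestrus ran from 12.49 to 13.18 with a median of 12.78, and the proestrus libraries had 12.59, 12.65 and 12.62. Estrus had 13.08, 13.28, 13.45 and 12.14, and males had 13.24, 13.18, 12.79 and 12.64. The fold change of estrus over proestrus was 0.34 ± 0.22 (SE, interval -0.12 to 0.80, limma adjusted p = 0.502). Without Estrus replicate 4 it was 0.67 ± 0.20 (SE, adjusted p = 0.0742), the lowest adjusted p of any of the 9 genes when single libraries were left out. In batch 2 alone it was 0.65 ± 0.16 (SE, adjusted p = 0.180). Estrus over metestrus was 0.20 ± 0.22 (SE, adjusted p = 0.776), but 0.53 ± 0.20 without Estrus replicate 4 (SE, adjusted p = 0.219), 0.42 without Metestrus replicate 3 (adjusted p = 0.495) and 0.56 in batch 2 alone (adjusted p = 0.338). Other left-out libraries lowered these values. With single libraries left out, estrus ran from 0.02 to 0.53 over metestrus and from 0.21 to 0.67 over proestrus.

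The order of the group means differed between the genes. Males had the highest mean in 6 of the 9 genes, namely Gjb6, Kcnj10, Kcnj16, Aqp4, Mlc1 and Hepacam. Estrus was highest for Gjb2 and Atp1b2, and metestrus for Gja1. Proestrus was lowest for Gja1, Gjb6, Aqp4 and Atp1b2, estrus for Kcnj10, Kcnj16 and Mlc1, and metestrus for Gjb2 and Hepacam. No pair of neighbours in these orders differed past the threshold. Without Estrus replicate 4 estrus was also highest for Gja1 (13.54, metestrus 13.34) and Hepacam (13.62, males 13.57), and proestrus in place of estrus was lowest for Kcnj10 and Mlc1.

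Groups whose libraries did not overlap were counted as a further description. In proestrus against metestrus 0 of 9 genes were separate, where 8.73% of all tested genes were, and in estrus against proestrus 0 of 9 (all genes 9.06%). In estrus against metestrus 0 of 9 were separate (all genes 3.33%), and in males against metestrus 0 of 9 (all genes 1.44%). Males and proestrus were separate in 3 of 9 genes (Gjb6, Kcnj10 and Aqp4), against 21.1% of all genes, and males and estrus in 1 of 9 (Kcnj10), against 11.9%. These comparisons share their male, proestrus and metestrus libraries, and those of males with proestrus and estrus also differ in batch.

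Read as a list, the 9 genes had medians on the same side as those of all genes in each comparison. Proestrus over metestrus was positive in 1 and negative in 8, with a median of -0.21 beside -0.09 over all tested genes. Estrus over proestrus was positive in 6 and negative in 3 at a median of 0.11 (all genes 0.02), and estrus over metestrus positive in 3 and negative in 6 at -0.22 (all genes -0.07). Without Estrus replicate 4 the last was positive in 5 and negative in 4 at 0.12, the opposite direction, and estrus over proestrus stood at 0.39. Without Metestrus replicate 3 both comparisons with metestrus turned, proestrus to 7 positive and 2 negative at 0.10, and estrus to 6 positive and 3 negative at 0.12. In batch 2 alone the medians were -0.07 for proestrus and 0.22 for estrus over metestrus, and 0.35 for estrus over proestrus. Estrus over proestrus turned without Estrus replicate 1, to 3 positive and 6 negative at -0.02, and it was 0.06 without Estrus replicate 3, 0.03, 0.07 and 0.20 without Proestrus replicates 1, 2 and 3. Males over metestrus was positive in 8 of 9 at 0.20 (all genes 0.04), males over proestrus in 9 of 9 at 0.33 (all genes 0.13) and males over estrus in 7 of 9 at 0.32 (all genes 0.11). With the libraries centred on the astrocyte markers these male medians were -0.02, 0.00 and -0.05, beside -0.18, -0.19 and -0.25 over all genes. Males over estrus had a median of 0.07 without Estrus replicate 4 and 0.01 without Metestrus replicate 3, and males over proestrus 0.18 without the latter. Metestrus replicates 5 and 6, left out in turn, took males over metestrus to 0.11 and 0.08 and males over estrus to 0.18 and 0.17. Without Metestrus replicate 1 the medians were -0.43 for proestrus and -0.35 for estrus over metestrus and 0.50 for males over proestrus. Without Proestrus replicate 3 they were -0.32 for proestrus over metestrus and 0.54 for males over proestrus, and without Estrus replicate 1 the value for estrus over metestrus was -0.35.

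In 6 of the 19 libraries all 9 genes lay on the same side of their group means, and in the other 13 they lay on both sides. Metestrus replicates 3 and 8 and Estrus replicate 1 were above their group mean in 9 of 9 genes, and Metestrus replicates 1 and 5 and Estrus replicate 4 were below it in 9 of 9. The median deviation of the genes was -0.57 in Estrus replicate 4 and 0.41 in Metestrus replicate 8. Libraries also differed in the mean of the astrocyte markers, which was 14.20 in Metestrus replicate 8, 14.09 in Metestrus replicate 3 and 13.75 in Metestrus replicate 1. The part of this mean in the shared movement was not tested.

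**Figure D3:**
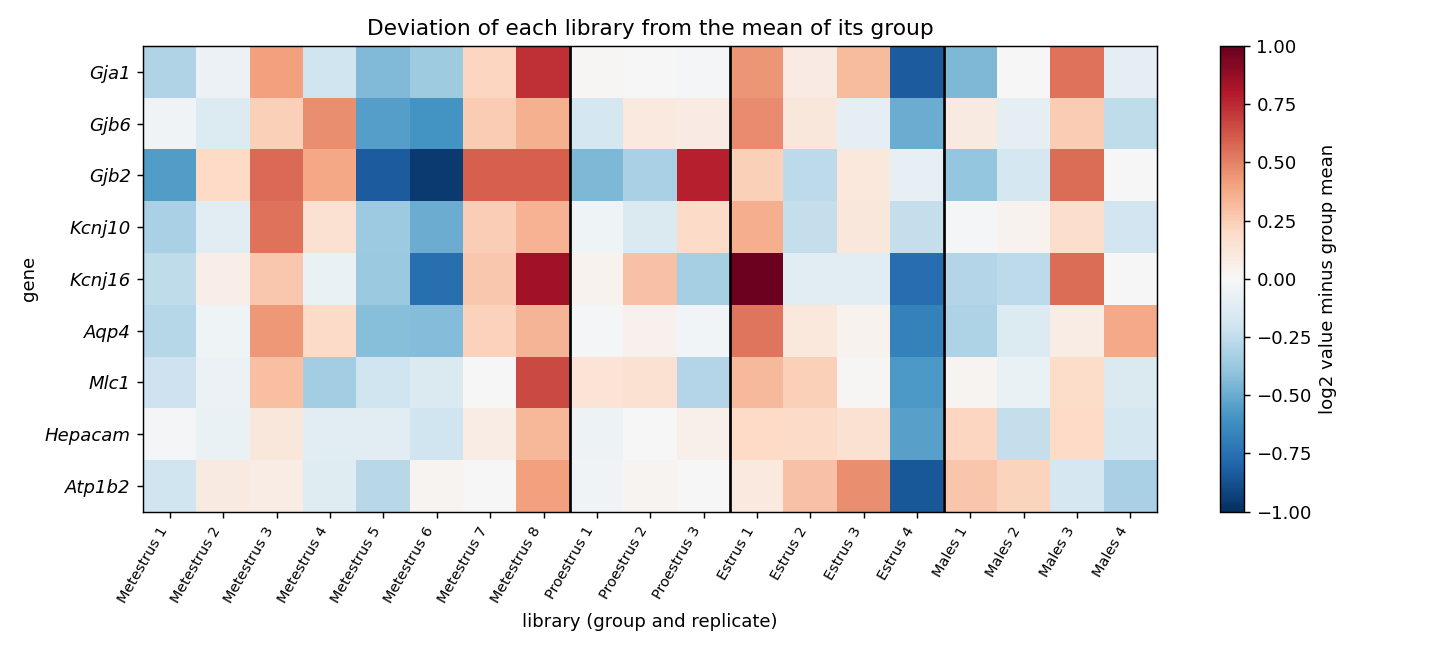
Deviation of each library (x axis, grouped by stage and sex) from its group's mean log2 value for the 9 genes (y axis), with red above and blue below and the colour scale in log2 units. Estrus replicate 4 is below its group mean in every row, with deviations from -0.85 to -0.08, and Metestrus replicate 8 above it in every row, from 0.33 to 0.84.

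Across the 19 libraries, correlations between the 9 genes were positive in 36 of 36 pairs. Pearson's r had a median of 0.589 and ran from 0.082 to 0.831. On deviations from the group means, where differences between groups cannot contribute, the median was 0.686 (0.147 to 0.855). Pooled over the 9 genes against all other tested genes, the median r across the libraries was 0.104, and 62.0% of the values were positive. On deviations from the group means the pooled median was 0.112, with 61.6% positive. The points share libraries, batches and the unknown scaling, and directions are missing from the deposited values, so these numbers are given as a description.

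The highest correlation within groups was that of Gja1 with Kcnj16, at 0.855 (0.723 on the values as they are, rho 0.639). Without the 2 libraries farthest from the median of Gja1, which were Metestrus replicate 8 and Estrus replicate 4, the r of the values fell to 0.502. Kcnj10 with Kcnj16, the partners of mixed channels, had an r of 0.78, and 0.791 without Metestrus replicate 3 and Estrus replicate 2. Gja1 with Gjb6, the partners in junctions, had 0.667, which was 0.5 without Metestrus replicate 8 and Estrus replicate 4. Mlc1 with Hepacam had 0.636, and 0.497 without the same libraries. Within groups, Gjb2 was less alike to Mlc1 (0.26) and Atp1b2 (0.15) than to Kcnj10 (0.84). On the values as they are, its r was 0.08 with Mlc1, 0.27 with Atp1b2 and 0.41 with Kcnj10. That with Gja1 was higher, at 0.52.

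**Figure D4:**
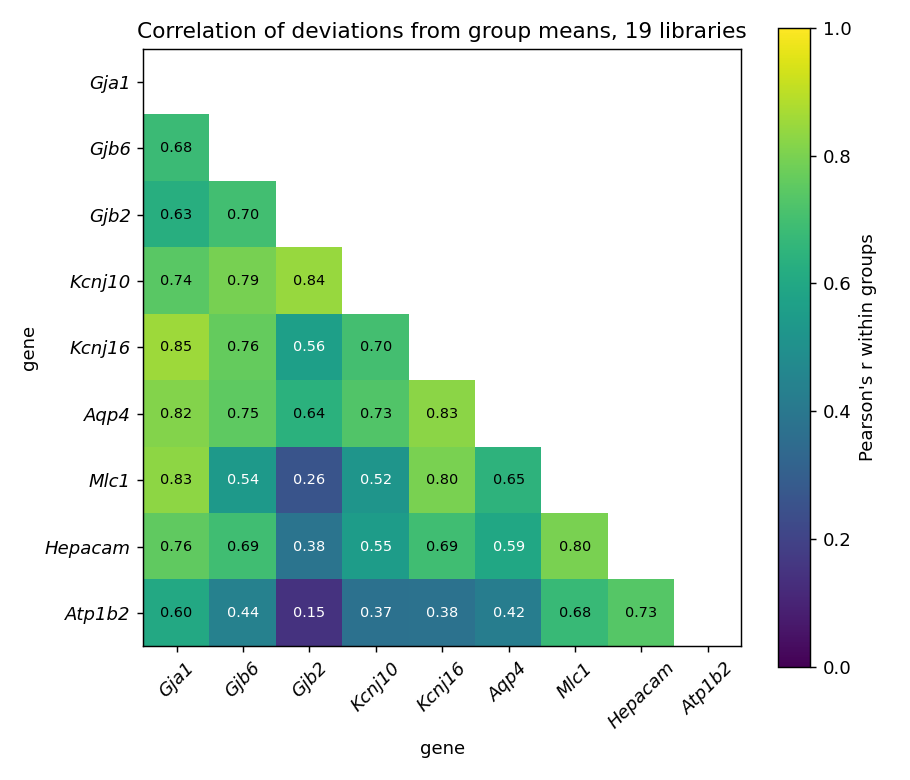
Pearson's r (colour and number) between the deviations from the group means of each pair of the 9 genes over 19 libraries, with genes on both axes. All 36 pairs are above 0, and the row of Atp1b2 holds the lowest value, 0.15 with Gjb2.

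Genes outside the set that followed each member most closely over the 19 libraries were the following. For Gja1 they were Tspan3 (r 0.913), Hsd17b12 (0.911) and Pttg1ip (0.895). Gjb6 was closest to F3, which encodes tissue factor and is among the astrocyte markers (0.96), then to Scpep1 (0.924) and Med10 (0.919). Gjb2 was closest to a gene given only by its identifier, ENSMUSG00000127613 (0.896), then to Zfp456 (0.893) and Hebp2 (0.882). Kcnj10 was closest to Paqr8 (0.939), Igfbp5 (0.924) and the lysosomal membrane gene Lamp1 (0.915), and Kcnj16 to the tetraspanin gene Cd9 (0.952), Tpm4 (0.928) and Timp2 (0.916). Aqp4 was closest to the adhesion gene Vcam1 (0.952), the cystine transporter gene Slc7a11 (0.926) and Cadm1 (0.916). For Mlc1 the nearest were the brevican gene Bcan (0.914), Serpinh1 (0.896) and Mfge8 (0.884). For Hepacam they were Dazap2 (0.936), Ywhae (0.893) and Mid1ip1 (0.891), and for Atp1b2 Oat (0.894), Slc3a2 (0.878) and Gpr160 (0.876). These are the 3 highest of all tested genes for each gene, which makes high values likely, and no member was among them.

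Other genes of the same pathways were taken from lists. Among other connexins and pannexins, 9 of 20 were tested and 0 of 9 passed in any comparison. Gjc3, the oligodendrocyte connexin, averaged 8.21 in metestrus, 7.95 in proestrus and 8.57 in estrus. Gjd2, the neuronal connexin Cx36, averaged 6.77 ± 1.74 in proestrus (SD, n = 3) against 2.69 ± 0.93 in metestrus (SD, n = 8), the metestrus mean below the filter. Its fold change was 4.11 ± 1.04 (SE, limma adjusted p = 0.0599), and it did not pass. It is named because of its size, after its values were seen. Of 9 scaffold genes of junctions, such as Ctnnb1 (beta-catenin) and Nedd4 (a ubiquitin ligase of Cx43), 9 were tested and 0 passed.

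Among the other subunits and regulators of the sodium-potassium pump, 11 of 13 were tested and 0 of 11 passed. Atp1b1, the beta subunit common in neurons, had means of 13.28 in estrus, 13.19 in metestrus, 13.16 in proestrus and 13.10 in males. Of other inward rectifiers and chloride cotransporters, 16 of 18 were tested and 0 of 16 passed. Their medians were negative in estrus, with 12 of 16 negative against metestrus (-0.20) and 12 of 16 negative against proestrus (-0.24), beside medians of -0.07 and 0.02 over all genes. Against metestrus the count was 9 of 16 at -0.04 without Metestrus replicate 3 and 11 of 16 at -0.07 in batch 2 alone, and against proestrus 12 of 16 at -0.45 in batch 2 alone. The neuronal cotransporter Slc12a5 averaged 10.90 ± 0.06 in proestrus, 10.54 ± 0.19 in metestrus, 10.44 ± 0.22 in estrus and 10.16 ± 0.61 in males (SD).

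Of the other aquaporins 5 of 10 were tested and 0 of 5 passed. Aqp11 averaged 8.28 in metestrus and 7.84 in proestrus, and Aqp9 averaged 7.19 and 6.11. Of the 10 genes reported with Mlc1 and Hepacam, all 10 were tested and 0 passed, while 10 of 10 were negative in estrus against metestrus at a median of -0.29, beside -0.07 over all genes. The count was 6 of 10 negative at -0.07 without Estrus replicate 4, the library lowest in astrocyte markers, 7 of 10 at -0.10 without Metestrus replicate 3 and 4 of 10 at 0.03 in batch 2 alone. This list includes Gpr37l1 and Slc4a4, which are also among the astrocyte markers. Kcnj8 stands in both the channel and the vessel lists, and Aqp1 in both the aquaporin and the choroid plexus lists.

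Of 16 genes that anchor channels in the endfoot, a dystrophin complex with its matrix, 16 were tested and 1 passed, in estrus against proestrus. Sntb1, a syntrophin of the dystrophin complex, was at 7.74 ± 0.55 in estrus (SD, n = 4) against 5.83 ± 0.76 in proestrus (SD, n = 3), with a fold change of 1.90 ± 0.40 (SE, limma adjusted p = 0.0233). The call was lost when the missing directions were counted in the model (adjusted p = 0.068, the same fold change), without Proestrus replicate 1 (1.72, adjusted p = 0.122), without Proestrus replicate 2 (1.54, adjusted p = 0.130) and without Estrus replicate 3 (1.75, adjusted p = 0.0564). The fits of batches 2 and 3 (1.90, adjusted p = 0.199) and of batch 2 alone (2.59, adjusted p = 0.175) lost it too. Without Proestrus replicate 3 the Sntb1 value was 2.54 (adjusted p = 0.00273), and without Estrus replicate 4 it was 2.28 (adjusted p = 0.0118).

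Markers of other cell types were set beside these genes. Neuron, oligodendrocyte, microglial and choroid plexus and ependymal markers had 0 calls in all 6 comparisons in limma, with 11 of 12 oligodendrocyte markers positive in estrus against metestrus at a median of 0.28. Without Estrus replicate 4 the oligodendrocyte count was 11 of 12 at 0.42, and without Metestrus replicate 3 it was 7 of 12 at 0.37. Of 14 endothelial and mural markers, from the vessels that endfeet contact, 0 passed in limma in any comparison. Their medians were -0.72 in estrus against metestrus (10 of 14 negative, all genes -0.07) and 1.39 in males against estrus (12 of 14 positive, all genes 0.11). Tek, Kcnj8 and Kdr averaged 0.49, 0.51 and 3.25 in estrus, below the filter, and the others were above it. The size of these medians is therefore uncertain. Library means of this list were 4.73 to 5.86 for estrus, 5.47 to 6.54 for metestrus, 5.74 to 6.31 for proestrus and 5.55 to 7.20 for males. Of 14 meningeal fibroblast markers 1 passed, Aspn (asporin), higher in proestrus than in metestrus (5.42 ± 0.83 SE, adjusted p = 0.00231) and lower in males than in proestrus (-7.61 ± 1.07 SE, adjusted p = 0.00315). Its means in metestrus and males were below the filter, so the size of these changes is uncertain, and the stage comparison in batches 2 and 3 alone gave an adjusted p of 0.0773, and 0.248 in batch 2 alone. The part of these cells in the values of the 9 genes was not tested.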

How the data were processed

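Ribosome-bound RNA was sequenced in 19 mouse libraries. The authors deposited 1 log2 value per gene and library. Their scaling, pseudocount and filters are not stated in the sources used here. Per the submitters' processing notes, STAR, Salmon, edgeR and the build GRCm39 were used, with no versions or order. After centring, the 19 columns spanned 14 of 18 dimensions, so 4 directions had been taken out before deposit, and 11 of 15 remained within groups.

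Groups and batches came from the labels. A gene was tested when 3 or more libraries reached a log2 value of 3.32, which is 10 on the linear scale. Group and batch were fitted over the 19 libraries with limma 3.58.1 (R 4.3.3, trend and robust prior), with two-sided p-values adjusted by Benjamini-Hochberg over all tested genes. The fit counts 13 residual degrees of freedom where the rank allows 11, and an alternative counts 11. The script was tested on simulated data. Alternatives covered the filter, an added pseudocount, scaling, the batch term, the variance prior, single batches, a replicate block, and each library left out. Centring on the astrocyte markers was chosen after the data were seen.

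The genes and the 14 other lists, 7 of related genes and 7 of cell type markers, were chosen with earlier results of these data known. From each other list the text names genes past the threshold (at most 4) and up to 3 of those with the highest mean log2 value, as examples only, and for each member the 3 tested genes with the highest Pearson's r. Some genes of the lists are not reported here. Promoter windows are RefSeq's, on GRCm38.p6, a different build from that of the values, and no coordinates were transferred between builds.

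Batch 4 carried numbers in its library titles that metestrus and males share. Deviations from the group means correlated at -0.1, -0.2, 0.151 and -0.01 between libraries of the same number, and the main fit did not pair the samples. Because directions within groups are missing from the deposited values and the pairs are few, these correlations cannot exclude pairing. A fit with the numbers as a block is given below.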

Additional observations from a re-analysis of the deposited data

Results flagged for a closer look

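Some values stood apart from the rest of their group by Dixon's test, in 3 of the 72 groups checked. Chance alone marks about 1 in 20 groups. Hepacam in Estrus replicate 4 was 12.891, the lowest of the 4 estrus libraries, and the nearest was 13.585. That library is the only estrus library of batch 3, and its astrocyte marker mean was the lowest of all, at 13.491. The mean of the 9 potassium, water and gap junction genes in Males replicate 3 was 12.508, the highest of the 4 male libraries, with 12.164 next, while its astrocyte marker mean of 14.121 lay inside the male range of 13.96 to 14.258. The mean of the endothelial and mural markers in Estrus replicate 4 was 5.862, the highest of the estrus libraries, with 4.873 next.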

How the results depend on the processing

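No member passed the threshold under any alternative: all 170 counts of members called were 0, as in the results given above. Of 1530 alternative fold changes of single members, 80 changed sign, none past the threshold, and the largest main size among those was 0.325 in log2. Many of the 1530 could not move, so the 80 are no measure of stability. Without the filter, with missing directions counted, or without trend and robust prior, fold changes stay those of the main fit. Leaving out a library of batch 4 leaves the stage fold changes as they were. The number of all genes called moved far more than the count of members called. With no batch term it was 1146 in proestrus against metestrus (204 in the results above), 217 higher and 144 lower in estrus against proestrus (123 and 71), 899 in estrus against metestrus (18), 10 in males against metestrus (5), 1752 in males against proestrus (36) and 1974 in males against estrus (0). With the missing directions counted these were 75, 52, 0, 5, 7 and 0, and with neither variance trend nor robust prior 256, 172 higher with 119 lower, 49, 9, 79 and 17. In batches 2 and 3 alone the stage comparisons gave 1, 0 and 0 genes, and in batch 2 alone 1, 0 and 0. Centring on medians gave 310 in estrus against proestrus. No filter, equal sums and astrocyte centring gave 27, 11 and 6 in estrus against metestrus, and astrocyte centring gave 24 in males against proestrus. Adding 10 before the log gave 105 higher and 59 lower genes in proestrus against metestrus (48 and 156 without it), 111 and 127 in estrus against proestrus (123 and 71), 13 and 1 in estrus against metestrus (4 and 14), 18 and 34 in males against proestrus (28 and 8), 13 genes in males against metestrus and 8 in males against estrus. With single libraries left out the counts ran from 68 to 250, 66 to 430, 0 to 56, 5 to 8, 7 to 51 and 0 to 4, in the order of comparisons above; the highest count of estrus against proestrus was that without Estrus replicate 4. The cause of these moves was not tested. A replicate block in batch 4, by the numbers in the library titles, gave 4 genes and 0 members in males against metestrus, with Aqp4 at 0.555 (adjusted p = 0.840); 1 of 4 libraries correlated best with its own number. Depth is unknown, so the precision of single values cannot be given.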

Other observations

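The proestrus libraries lay close together in several of these genes although they came from 2 batches. The standard deviation over the 3 libraries was 0.013 for Gja1, 0.031 for Atp1b2, 0.035 for Aqp4 and 0.049 for Hepacam, and the median over the 9 genes was 0.151. Over all tested genes the median was 0.389 in proestrus, and 1.88% had a standard deviation under 0.05. In metestrus the median over the 9 genes was 0.378, beside 0.381 over all tested genes. The mean of the astrocyte markers was also close in proestrus, from 13.766 to 13.815. The part of the directions missing from the deposited values in this spread was not tested.

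Within groups, Gjb2 was most like Kcnj10 among the other members (r 0.84), although its level was highest in estrus, where Kcnj10 had its lowest mean (without Estrus replicate 4 that was in proestrus). On the values as they are, the r of Gjb2 with Kcnj10 was 0.407, below that with Gja1, 0.524. The log2 value of Gjb2 minus that of Gjb6 ran from -5.07 to -4.20 in the metestrus libraries and from -3.96 to -3.17 in the estrus libraries, without overlap. It was -4.52 to -3.41 in proestrus and -4.85 to -4.06 in males. This difference was chosen after its values were seen and was not tested. Gjb2 minus Gja1 overlapped, at -5.45 to -4.26 in metestrus and -4.41 to -3.31 in estrus. The share of all gene pairs whose differences separate these stages was not counted.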
